A study of Danio rerio with 6 samples.

Results

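The neural crest specification factors followed here were *foxd3*, *sox9b*, *sox10*, *snai1b*, *snai2*, *twist1a*, *twist1b* and *ets1*, a set of transcription factor genes fixed by symbol. Of these 8 symbols, 7 matched a gene symbol in the deposited transcript table, and transcripts were summed per Ensembl gene, which gave 7 members among 26190 genes. *ets1* matched none of the listed symbols and is taken up at the end of the account through its Ensembl identifier. The set was named for its function, not for its values, although earlier results of these data were known when it was drawn up.

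RNA was sequenced from zebrafish embryos of the transgenic line *Tg(krt4:GFP)* at the 4-somite stage (11 hpf), in 3 GFP-positive and 3 GFP-negative libraries of sorted cells. The embryos came from 3 independent incrosses, and each batch gave both populations. Both populations carried the same transgene and differed only in the sorting gate. GFP is driven by regulatory sequence of the keratin gene *krt4*, which is active in the periderm (enveloping layer, EVL). GFP-positive cells are therefore labelled periderm, and GFP-negative cells are labelled non-periderm, a mixture of many cell types of pooled, dissociated embryos. The sources differ on how many cells were sorted per library. In such bulk samples, fewer cells of a type and less RNA per cell cannot be told apart.

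Neural crest cells are a vertebrate cell population that arises at the border between the neural plate and the non-neural ectoderm. Border factors such as Pax3, Msx and Zic proteins come first, and specification factors such as FoxD3, SoxE, Snail and Twist proteins follow. Snail and Twist proteins are known for the epithelial-mesenchymal transition, in which cells leave an epithelium, and the crest later gives rise to pigment cells, peripheral neurons and glia, and craniofacial skeleton. Several of these factors are also used outside the crest, *foxd3* in somites and the twist genes in mesodermal mesenchyme for example. The periderm is a separate, early lineage of flat surface cells.

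Library totals ranged from 40584467 to 49679602 estimated counts, and each member held between 112 and 5663 of these per library, with the fewest for *twist1b* and *snai1b*. A chi-square of the counts over genes, divided by its degrees of freedom, was 5.27 to 20.3 between libraries of 1 population, with GFP-positive replicate 3 the farthest from the others, and 147.19 to 174.67 between libraries of different populations. All 10 EVL markers were scored higher in GFP-positive cells (median log2 fold change 4.06), against 24.1% of all genes tested. *krt4* is no independent check among them, because its regulatory sequence drives the GFP used for sorting. *krt4* had 2430 ± 143 TPM in the GFP-positive libraries and 601.8 ± 49.5 TPM in the GFP-negative libraries (SD, n = 3), *cyt1l*, another keratin, had 834.7 ± 12.3 TPM against 99.5 ± 3.37 TPM, and *icn2*, a calcium-binding ictacalcin gene, had the largest log2 fold change of the list, 5.53. No marker of the other lineages examined was at 0 in GFP-positive cells. Nor was any EVL marker at 0 in GFP-negative cells, where the 10 markers, *krt4* included, summed to 865.0 to 961.2 TPM. The summed TPM of 8 neural plate markers was 571.3 to 574.4 in GFP-positive cells, against 1024.8 to 1042.9 in GFP-negative cells, and that of 9 paraxial mesoderm markers was 278.6 to 282.7 in GFP-positive cells, against 279.5 to 288.3 in GFP-negative cells. These levels stand beside every result below, and their part in the values of the crest factors was not tested.

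All 7 crest factors were expressed in both populations, and they moved in both directions. TPM (transcripts per unit of library, corrected for transcript length) allows levels to be compared between genes. The TPM summed over the 7 genes was nearly the same in both populations. It was 170.25 ± 1.77 for the GFP-positive libraries and 166.32 ± 2.49 for the GFP-negative ones (SD, n = 3). The libraries overlapped only at the edge, with a lowest GFP-positive sum of 168.65 and a highest GFP-negative sum of 168.67. The single genes differed by up to 3.17-fold, a value fitted to normalized counts and not taken from TPM. *twist1b*, *twist1a*, *foxd3* and *snai2* were scored higher in GFP-positive cells, and *snai1b*, *sox9b* and *sox10* lower. A call required an adjusted p below 0.05 by edgeR's quasi-likelihood test (Benjamini-Hochberg over the 20944 genes tested) and a mean above 1 TPM in whichever population had more.

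Calls were frequent in this comparison. The share of all tested genes with a call was 24.1% for those higher in GFP-positive cells, 25% for those higher in GFP-negative cells and 49% for both directions combined. Of the 7 crest factors, 4 fell in the first class and 3 in the second. The balance of directions differed between 2 fits that differ in both tool and scale, with 5041 genes higher and 5229 lower in GFP-positive cells by edgeR but 3805 higher and 6036 lower by limma on log2(TPM + 1). In 6 of the 7 crest factors the TPM ranges of the populations were fully separate, as in 58.5% of all genes tested. The median log2 fold change of the 7 was 0.18, against 0.02 over all genes tested, and their median absolute log2 fold change was 0.51, against 0.39. Each log2 fold change compares GFP-positive with GFP-negative libraries (positive where GFP-positive is higher) and was fitted to TMM-normalized counts.

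**Figure D1:**
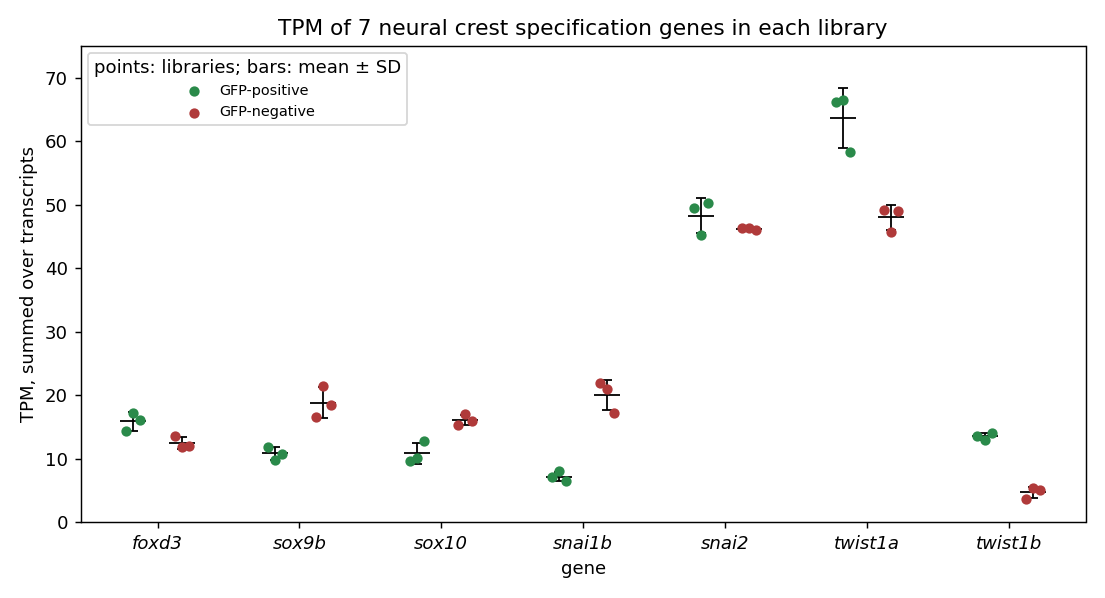
TPM of the 7 crest factors (vertical axis, summed over transcripts) in each of the 3 GFP-positive and 3 GFP-negative libraries, with mean and SD as bars. The populations overlapped for *snai2* alone, and *twist1b* was the member with the widest relative separation.

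The Snail family members *snai1b* and *snai2* encode zinc finger repressors that act on cadherin and other epithelial genes. *snai1b* (ENSDARG00000046019) had 7.12, 8.003 and 6.48 TPM in GFP-positive cells, against 21.9, 20.9 and 17.3 TPM in GFP-negative cells. The groups were far apart, and the highest GFP-positive library lay below every GFP-negative one. The log2 fold change was -1.38 (SE 0.14, edgeR adjusted p = 1.32e-06), a 2.6-fold lower expression in GFP-positive cells, and only 3% of all genes tested had a lower value. *snai1b* has a second annotated transcript, which is listed at 0 in all 6 libraries, so that the gene's value is that of 1 transcript of 1094 bases.

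*snai2* (ENSDARG00000040046), by contrast, was almost level. It had 49.4, 45.2 and 50.2 TPM in GFP-positive cells, against 46.4, 46.3 and 46.0 TPM in GFP-negative cells. Replicate 2 of the GFP-positive cells lay below all GFP-negative libraries and the other 2 above them, so the groups overlapped. The fitted log2 fold change was 0.18 (95% interval 0.05 to 0.31, edgeR adjusted p = 0.0213). This call did not hold without replicate 1 of the GFP-positive cells (adjusted p = 0.102), replicate 2 of the GFP-negative cells (0.0951) or replicate 3 of the GFP-negative cells (0.0679), nor by limma on log2(TPM + 1) (log2 fold change 0.06, adjusted p = 0.439). The estimated counts of *snai2* were whole numbers, within 0.01, in 0 of 6 libraries, so reads divided with other sequences are possible, whereas those of *snai1b* were whole in all 6. Of 25239 genes with counts, 57% were whole in all 6 libraries by the same tolerance.

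The twist genes encode bHLH factors of mesenchyme, and both were higher in GFP-positive cells. *twist1b* (ENSDARG00000076010) had 13.5, 13.0 and 14.05 TPM in GFP-positive cells, against 3.69, 5.35 and 5.01 TPM in GFP-negative cells. Each GFP-positive library lay above every GFP-negative one, and the spread within GFP-positive cells was small. The log2 fold change of 1.66 (its SE 0.15, edgeR adjusted p = 4.50e-07) exceeded that of 95% of all genes tested. *twist1a* (ENSDARG00000030402) had the highest mean TPM of the members in both populations, with 66.1, 66.5 and 58.2 TPM in GFP-positive cells, against 49.2, 45.8 and 49.1 TPM in GFP-negative cells. Its populations did not overlap, although the difference was smaller, with a log2 fold change of 0.51 (SE 0.09, edgeR adjusted p = 0.000226). By the same tolerance, estimated counts were whole in all 6 libraries for *twist1a* and in 0 for *twist1b*, for which divided reads are again possible.

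*foxd3* (ENSDARG00000021032), a forkhead gene needed for crest development, was also higher in GFP-positive cells. It had 14.3, 17.3 and 16.1 TPM in GFP-positive cells, against 13.5, 11.9 and 11.999 TPM in GFP-negative cells. Replicate 1 of each population lay closest to the other population, with a gap of less than 1 TPM between them. The log2 fold change was 0.46 (SE 0.10, edgeR adjusted p = 0.00139), and it ranged from 0.39 to 0.54 when single libraries were left out.

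The SoxE genes *sox9b* and *sox10* encode HMG box factors, and Sox10 is the one known for pigment, neural and glial derivatives of the crest. *sox10* (ENSDARG00000077467) had 9.70, 10.2 and 12.8 TPM in GFP-positive cells, against 15.3, 17.0 and 15.9 TPM in GFP-negative cells. The populations did not overlap, and the GFP-positive library nearest to the GFP-negative ones was replicate 3. The log2 fold change was -0.45 (SE 0.08, edgeR adjusted p = 0.000385), and counts were whole in all 6 libraries. *sox9b* (ENSDARG00000043923) had 11.9, 9.81 and 10.8 TPM in GFP-positive cells, against 16.6, 21.5 and 18.4 TPM in GFP-negative cells, and every GFP-positive library was again the lower. Its log2 fold change was -0.95 (SE 0.07, edgeR adjusted p = 5.92e-08), a 1.94-fold difference, and its counts were whole in 0 of 6 libraries by that tolerance.

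**Figure D2:**
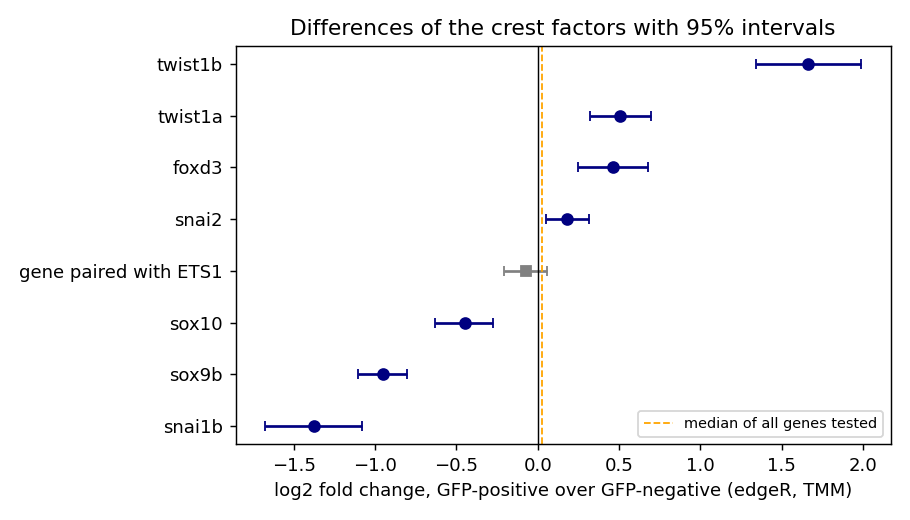
Log2 fold change of each crest factor, GFP-positive over GFP-negative (horizontal axis), with its 95% interval from edgeR. The dashed line marks the median of all genes tested, 0.02, and the square the gene paired with ETS1. *twist1b* (1.66) and *snai1b* (-1.38) are the ends of the range, and *snai2* (0.18) is the member nearest to 0.

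*sox9b* was summed from 2 transcripts with unlike values, although the difference between them was not tested. The long transcript (ENSDART00000064500, 3419 bases) had 6.49, 7.29 and 7.40 TPM in GFP-positive cells, against 15.5, 15.6 and 15.6 TPM in GFP-negative cells. Libraries of 1 population hardly differed in it, and its log2 fold change was -1.01 (edgeR on all 32736 transcripts tested, adjusted p = 8.29e-05). The short transcript (ENSDART00000155048, 864 bases) had 5.39, 2.52 and 3.39 TPM in GFP-positive cells, against 1.09, 5.84 and 2.77 TPM in GFP-negative cells, and held only 20.6 to 117.3 estimated counts. Its populations overlapped throughout, with a log2 fold change of 0.34 (95% interval -1.07 to 1.75, edgeR adjusted p = 0.696). Most of the spread of *sox9b* between replicates of 1 population therefore lay in the short transcript. The other members rest on 1 transcript each, apart from *twist1b*. The second transcript of *twist1b* was at most 0.57 TPM in any library, reached in replicate 1 of the GFP-negative cells, where the gene had 3.69 TPM. Among all transcripts tested 32.5% were called, and of the 8 transcripts of the members that were tested, 4 were scored higher in GFP-positive cells and 3 lower.

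The order of the levels differed between the populations. In GFP-positive cells *twist1a* stood first, followed by *snai2*, *foxd3*, *twist1b*, *sox10*, *sox9b* and *snai1b*, and of these neighbours only *sox10* and *sox9b* overlapped in their libraries. In GFP-negative cells *twist1a* and *snai2* came first with overlapping libraries, *snai1b* overlapped with *sox9b* and *sox9b* with *sox10*, and *foxd3* and *twist1b* came last, each apart from its neighbours. By summed TPM, *snai1b* was the lowest member in GFP-positive cells and ranked 3 in GFP-negative cells, while *twist1b* ranked 4 in GFP-positive cells and was lowest in GFP-negative cells. These ranks moved with the measure. With the most abundant transcript alone, *sox9b* (7.06 TPM) lay just below *snai1b* (7.20 TPM) in GFP-positive cells. By CPM, which is not corrected for length, *snai1b* (11.7 CPM) ranked 6 in GFP-negative cells and *twist1b* (9.78 CPM) ranked 6 in GFP-positive cells. The highest member by CPM was *snai2* in both populations, with 108.7 CPM in GFP-positive and 95.9 CPM in GFP-negative cells. *twist1a* had 42.8 CPM and 30.1 CPM. By mean TPM, *twist1a* and *snai2* exceeded 87.6% and 84.4% of all genes tested in GFP-positive cells, against 83.5% and 83% in GFP-negative cells.

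Relative levels within pairs of related genes were computed as shares of their summed TPM. *twist1b* made up 17.59% ± 1.63 of the TPM of *twist1a* and *twist1b* in GFP-positive cells, against 8.90% ± 1.77 in GFP-negative cells (SD, n = 3). *snai1b* made up 13.02% ± 1.85 of the TPM of *snai1b* and *snai2* in GFP-positive cells, against 30.16% ± 2.51 in GFP-negative cells. It made up 16.46% ± 1.8 of that of *snai1a* and *snai1b* in GFP-positive cells, against 28.22% ± 2.91 in GFP-negative cells. The share of *sox9b* in *sox9a* and *sox9b* was likewise lower in GFP-positive cells, 22.27% ± 3.21 against 39.13% ± 5.95. In these 4 pairs the libraries did not overlap, and the exact two-sided permutation test gave p = 0.1 for each, the smallest value that 3 against 3 libraries allow (0.15 adjusted over the 6 shares computed). *sox10* and *sox9b* kept more even shares, with *sox10* at 49.99% ± 4.67 in GFP-positive cells, against 46.21% ± 1.97 in GFP-negative cells (exact permutation p = 0.3, adjusted 0.3). For the short transcript of *sox9b* the share was 34.17% ± 10.13 against 16.27% ± 10.39 (exact permutation p = 0.2, adjusted 0.24).

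**Figure D3:**
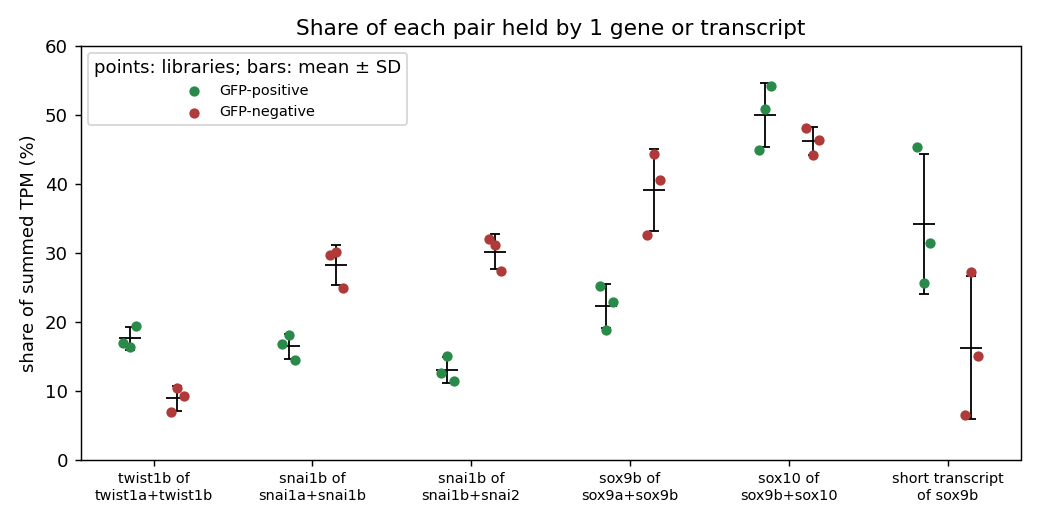
Share of the summed TPM of a pair held by its named gene or transcript (vertical axis, percent) in each library, with mean and SD. The libraries of the populations did not overlap in the 4 shares of *twist1b*, *snai1b* and *sox9b*, with *twist1b* at 17.59% in GFP-positive cells, against 8.90% in GFP-negative cells, and they overlapped for *sox10* and for the short *sox9b* transcript.

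The paralogs of the members were also called in both directions. Of 13 paralogs tested, 4 were scored higher in GFP-positive cells, 3 lower, and 6 were not called. The share called, 53.8%, was near the 49% of all genes tested. Among twist genes, *twist2*, known from the notochord and mesenchyme, had 5.40 ± 0.446 TPM in the GFP-positive libraries and 2.10 ± 0.818 TPM in the GFP-negative libraries (log2 fold change 1.46, edgeR adjusted p = 0.00018). *twist3* had 1.04 ± 0.018 TPM in the GFP-positive libraries and 0.663 ± 0.183 TPM in GFP-negative cells and was not called (edgeR adjusted p = 0.0518). *snai1a*, the closest relative of *snai1b*, was lower in GFP-positive cells too, to a smaller degree, with 36.6 ± 1.53 TPM against 50.9 ± 2.09 TPM and a log2 fold change of -0.26. *snai3* had 0.943 ± 0.278 TPM in the GFP-positive libraries and 0.132 ± 0.056 TPM in GFP-negative cells, below the TPM limit for a call (edgeR adjusted p = 0.000246). Among Sox genes, *sox9a* was higher in GFP-positive cells (38.1 ± 3.79 TPM against 29.4 ± 4.17 TPM, log2 fold change 0.29), opposite to *sox9b*, while *sox8a* and *sox8b* were under 1 TPM in both. Forkhead relatives of *foxd3* split in the same way. *foxd5* had a log2 fold change of 1.02 and *foxd1* one of -0.90, both called, and *foxd2* had 10.3 ± 1.18 TPM in the GFP-positive libraries and 9.84 ± 1.66 TPM in GFP-negative cells. In the ETS family, *ets2* was higher in GFP-positive cells (77.2 ± 3.64 TPM against 54.5 ± 0.957 TPM), *erg* was lower (4.84 ± 0.99 TPM against 7.93 ± 0.863 TPM), and *fli1a* had a log2 fold change of -0.003 (edgeR adjusted p = 0.971).

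The neural plate border genes, which act upstream of the crest factors, were mostly lower in GFP-positive cells. Of 19 tested, 14 were called as lower and 5 as higher, with a median log2 fold change of -0.73. Among all genes tested, 25% were called lower and 24.1% higher in GFP-positive cells. The most abundant over all 6 libraries was *zic2b*, a zinc finger gene of the dorsal neural tube, with 65.7 ± 2.75 TPM in the GFP-positive libraries and 156.3 ± 0.643 TPM in GFP-negative cells, followed by *msx1b*, a homeobox gene of the border, with 72.9 ± 1.8 TPM against 129.8 ± 0.223 TPM. *pax3b* had the lowest value of the list, a log2 fold change of -2.20 at 0.320 ± 0.092 TPM in the GFP-positive libraries and 1.59 ± 0.448 TPM in GFP-negative cells. The 5 that rose were *prdm1a*, *tfap2a*, *tfap2c*, *dlx3b* and *dlx5a*, the last with the largest log2 fold change (0.90). Of these 5, all but *dlx5a* were named after their values had been seen. *tfap2c* overlapped between the populations in its libraries.

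Other crest and crest lineage genes gave a mixed picture. Of 13 tested out of 14, 3 were scored higher in GFP-positive cells, 3 lower and 7 were not called. The share called, 46.2%, was near the 49% of all genes tested. The median log2 fold change of -0.01 was also close to that of all genes. *mych*, a Myc family gene expressed in the crest, was both the most abundant and the most increased, with 348.1 ± 6.11 TPM in the GFP-positive libraries and 201.1 ± 6.2 TPM in the GFP-negative libraries (log2 fold change 0.91). *mycn* had 142.6 ± 5.43 TPM against 167.5 ± 7.69 TPM and was not called (edgeR adjusted p = 0.06). *dct*, a melanin synthesis enzyme, was the called gene of the list with the largest decrease (log2 fold change -1.95), with 0.298 ± 0.127 TPM in the GFP-positive libraries and 1.07 ± 0.189 TPM in GFP-negative cells. Crestin, a transcript known as a marker of zebrafish crest, was lower in GFP-positive cells. *crestin* had 16.0 ± 2.95 TPM in the GFP-positive libraries and 24.8 ± 1.19 TPM in the GFP-negative libraries (log2 fold change -0.52, edgeR adjusted p = 0.000124), and it was singled out after its values had been seen.

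Genes of adhesion and matrix, among them cadherins on which Snail proteins are known to act in other systems, were called in both directions. Of 11 tested, 5 were higher in GFP-positive cells and 4 lower, so that 81.8% were called, against 49% of all genes tested. *epcam*, an epithelial adhesion molecule, had 896.0 ± 8.43 TPM in the GFP-positive libraries and 600.5 ± 19.7 TPM in GFP-negative cells, and *fn1a*, a fibronectin gene, had the largest increase (log2 fold change 0.90). *cdh2*, or N-cadherin, had 259.0 ± 40 TPM in the GFP-positive libraries and 363.3 ± 17.9 TPM in GFP-negative cells. *cdh6* had the largest decrease (log2 fold change -0.65). Also called higher in GFP-positive cells were *cdh1* (log2 fold change 0.67), *vim* (0.8) and *mmp2* (0.85). *fn1b* (-0.46) and *mmp14a* (-0.37) were called lower. These last 5 genes were named after their values had been seen.

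**Figure D4:**
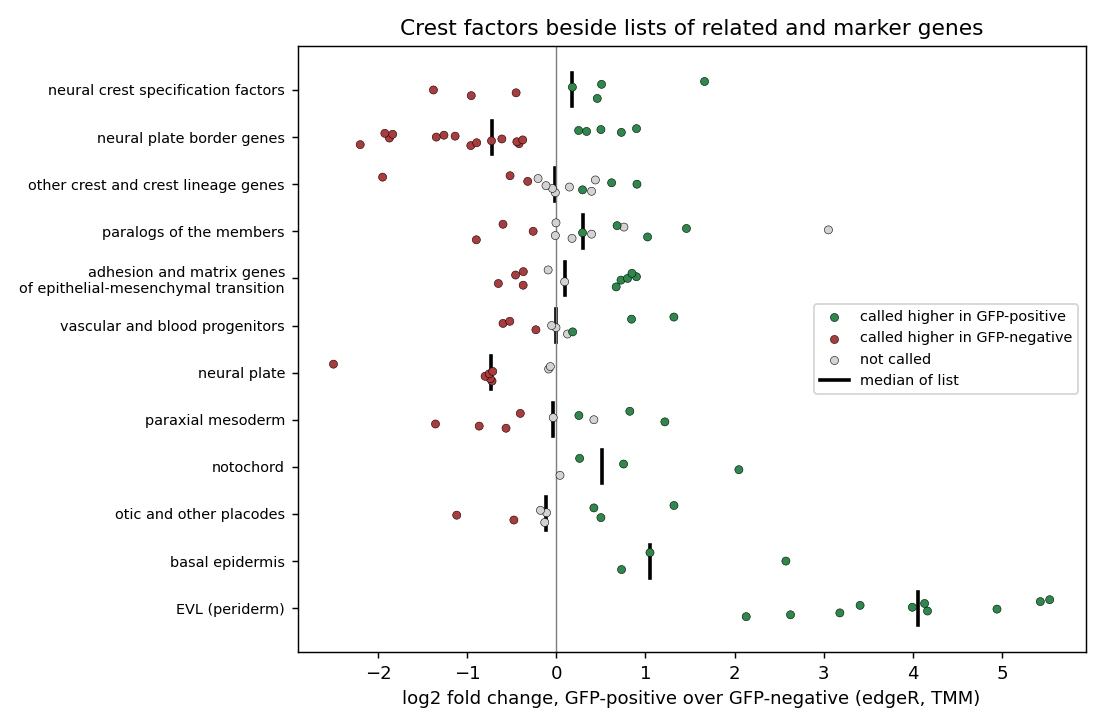
Log2 fold change, GFP-positive over GFP-negative (horizontal axis), of every tested gene of the crest factors and of 11 other lists, with the median of each list as a bar. Colours give the calls. The crest factors range from -1.38 to 1.66, the neural plate border genes have a median of -0.73, and all 10 EVL markers lie at 2.13 or above.

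Markers of other lineages gave the setting for these values. Of 8 neural plate markers, 6 were lower in GFP-positive cells and none was higher, with a median log2 fold change of -0.73. *sox3* had 222.9 ± 2.74 TPM in the GFP-positive libraries and 402.6 ± 10.4 TPM in GFP-negative cells, *sox19a* had 136.9 ± 4.49 TPM against 257.8 ± 3.56 TPM, and *her4.3*, a Notch effector of neural progenitors, had a log2 fold change of -2.50. Paraxial mesoderm markers went both ways, 3 higher and 4 lower of 9. *mespaa* (1.22) and *tbx16* (-1.35) were the ends of their log2 fold changes, and the muscle determination genes *myf5* (70.2 ± 1.38 TPM in the GFP-positive libraries and 77.5 ± 3.04 TPM in GFP-negative cells) and *myod1* (63.0 ± 3.23 TPM against 57.2 ± 0.33 TPM) were the most abundant, with *myf5* not called (log2 fold change -0.03). Of 4 notochord markers, 3 were higher in GFP-positive cells. Among them was *ta*, the T-box gene of notochord and tailbud, with 111.4 ± 11.3 TPM in the GFP-positive libraries and 29.1 ± 2.67 TPM in GFP-negative cells. Another was *foxa2*, with a log2 fold change of 0.26 (edgeR adjusted p = 0.017), although its libraries overlapped. Not called was *noto*, with 12.9 ± 1.18 TPM against 13.4 ± 0.982 TPM. Placode markers were called in 5 of 8 cases, 3 higher and 2 lower, with *foxi1* (1.32) and *dlx4b* (-1.12) at the ends, while *pax2a* had a log2 fold change of -0.47 and *eya1* one of -0.11 that was not called. All 3 basal epidermis markers were higher in GFP-positive cells, *cldni* with 505.5 ± 37.1 TPM against 278.6 ± 15.5 TPM, *tp63* with 87.5 ± 7.76 TPM against 63.1 ± 3.47 TPM, and *krtt1c19e* with 1.09 ± 0.174 TPM against 0.197 ± 0.036 TPM. Summed over its list, TPM was 159.3 to 181.2 in GFP-positive against 72.9 to 80.7 in GFP-negative libraries for notochord, 211.9 to 234.8 against 230.1 to 236.2 for placodes, 565.1 to 645.5 against 325.1 to 354.4 for basal epidermis and 5626.2 to 5849.1 against 865.0 to 961.2 for EVL. *ta* made up most of the notochord sum in GFP-positive libraries. *krt4*, whose regulatory sequence drives the GFP used for sorting, made up most of the EVL sum in GFP-negative libraries (601.8 TPM on average). The part of these lineages in the values of the crest factors was not tested. Over all 11 lists, 40 of 101 distinct genes tested were scored higher in GFP-positive cells, 38 lower and 23 were not called. Beside these counts and those of each marker list stands the 49% of all genes tested that were called.

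Vascular and blood progenitors, where Ets1 also acts, showed no common direction. Of 9 markers, 3 were scored higher in GFP-positive cells and 3 lower, so that 66.7% were called, against 49% of all genes tested. *lmo2*, a hemangioblast factor, had 127.1 ± 4.47 TPM in the GFP-positive libraries and 161.0 ± 6.68 TPM in GFP-negative cells, *etv2* had 85.6 ± 2.27 TPM against 84.5 ± 1.77 TPM and was not called, and *spi1b*, the myeloid factor, had the largest increase (log2 fold change 1.32). The identifier ENSDARG00000024431, which the gene name table pairs with *ETS1*, is listed in the expression table under the clone name CABZ01069595.1 and was therefore not matched as a member. It had 115.5, 124.6 and 132.3 TPM in GFP-positive cells, against 137.9, 136.1 and 141.6 TPM in GFP-negative cells. These TPM values exceeded those of all 7 members. By estimated counts it lay below *snai2*, with 2402 to 2859 per library against 3828 to 5663. The libraries of the gene paired with *ETS1* did not overlap by TPM. However, its log2 fold change fitted to counts was -0.07 (95% interval -0.21 to 0.06, edgeR adjusted p = 0.341). By limma on log2(TPM + 1) it was -0.16 (adjusted p = 0.0452).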

How the data were processed

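The authors trimmed reads with Trimmomatic (0.35 in the submitters' processing notes) and quantified them with kallisto (0.41 in the same notes) on zv10 cDNA. They deposited, for each library, 2 columns over 51286 transcripts (estimated count and TPM), and a table of their sleuth comparison per transcript (p-values, q-values and effects on a natural log scale), whose deposited effects and p-values were not used. The annotation release is not given in the sources used here. TPM values in both kinds of table agreed for 100% of these transcripts, within 0.001 TPM plus 1e-05 of the value.

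Estimated counts were summed per Ensembl gene and rounded, TPM values summed, and counts tested in R 4.3.3 with edgeR 4.0.16 (TMM, filterByExpr, quasi-likelihood F test, Benjamini-Hochberg over all 20944 genes tested), following the study's comparison without a block. A call needed an adjusted p below 0.05 and a mean TPM above 1 in the higher population. Standard errors were derived from the F statistic, and 95% intervals from the test's degrees of freedom. The common biological coefficient of variation was 0.0952. Other settings tried were no filter on low counts, DESeq2 1.42.0, RLE factors, library size alone, the replicate block, each library left out, limma 3.58.1 on log2(TPM + 1) and log2(TPM + 0.1), an adjusted p below 0.01, no TPM limit and the most abundant transcript. TMM-normalized CPM for the levels was added after seeing the data. The pair shares and their permutation tests were not in the plan either.

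Members and lists were chosen with earlier results of these data known. Named are all members and paralogs and, of each other list, the 2 most abundant genes and the largest called change in each direction. Outside this rule, *prdm1a*, *tfap2a*, *tfap2c*, *dlx3b*, *crestin*, *noto* and the remaining called genes of adhesion and matrix were named after their values had been seen. *inka1a* was found as fam212aa. The reference held no sequence tables, so no sequences are shown, and the coordinates of another assembly were not used.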

Additional observations from a re-analysis of the deposited data

How the results depend on the processing

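Of the 7 members, *foxd3*, *sox9b*, *sox10*, *snai1b*, *twist1a* and *twist1b* kept direction and call in every alternative run on values summed per gene. No member changed direction in these runs. The *snai2* call was lost by limma on log2(TPM + 1) (0.06), limma on log2(TPM + 0.1) (0.061, adjusted p = 0.449), at an adjusted p below 0.01, and without 1 of 3 libraries in turn, with 0.132 to 0.220 over all libraries left out. With the replicate number as a block (replicate block), the log2 fold changes were 0.461 for *foxd3*, -0.953 for *sox9b*, 0.18 for *snai2* and 1.673 for *twist1b*, no member's call changed, and 37 list genes in place of 38 were called lower in GFP-positive cells. By the study's description each replicate gave both populations, so same-numbered libraries may share an incross. Deviations from the group means correlated at -0.01 to 0.004 for same-numbered libraries and at -0.018 to 0.02 for the others. Because these ranges are alike, they cannot tell whether the numbers mark pairs. Of the transcripts of the members, 2 to 4 had a call for higher expression in GFP-positive cells when each library was left out (2 without replicate 2 or replicate 3 of the GFP-negative cells). With all libraries 4 had this call, so the loss in those 2 runs was not confined to the *snai2* transcript. Calls of list genes ranged from 36 to 43 higher and 35 to 41 lower in GFP-positive cells over all alternatives. limma on log2(TPM + 0.1) moved the median of all genes to -0.087, against 0.024 by edgeR, and gave the gene paired with ETS1 -0.16 (adjusted p = 0.0478). Depth limits *snai1b* and *twist1b* most, at 112 to 602 counts per library.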
